A study of Rattus norvegicus with 9 samples.

Results

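Gata1, Klf1, Tal1, Epor, Slc4a1, Epb42, Ank1 and Rhag are 8 of the 23026 genes quantified by mRNA sequencing of rat bone. They comprise 3 transcription factors of the red cell lineage, the erythropoietin receptor and 4 proteins of the red cell membrane, and were taken from the tables by name. All 8 passed the filter on low counts that left 16874 genes for testing. RNA came from the bone of female Sprague–Dawley rats bought at 8 weeks of age, and 3 groups of 3 libraries, each from a separate animal, were compared. Sham rats had the ovaries exposed and some fat removed, and received the vehicle sodium carboxymethyl cellulose (CMC-Na). OVX rats had both ovaries removed, a surgical model of bone loss after menopause, and received vehicle. OVX-AS-IV-High rats had the same operation and received astragaloside IV (AS-IV), a saponin of Astragalus root, at 80 mg/kg. The authors' methods describe AS-IV as prepared in 1% CMC-Na, and the labels give no CMC-Na for these libraries. Dosing was by gavage, began 6 weeks after surgery and lasted 8 weeks. The labels give the vehicle as 1%, 2% and 3% CMC-Na for Sham replicates 1, 2 and 3 and as 1% for every OVX library. Within Sham the labelled vehicle and the replicate thus cannot be told apart. The authors' methods give 1% CMC-Na for both Sham and OVX rats, and the sources used here do not settle the difference.

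Red cells are made in the marrow of bones such as the femur. The transcription factors GATA1, TAL1 and KLF1 work together there: GATA1 binds GATA sites, TAL1 binds nearby E-boxes as part of a complex with GATA1, LMO2 and LDB1, and KLF1 binds CACCC elements, among them one in the promoter of the adult β-globin gene. Erythropoietin acts through its receptor EPOR and the kinase JAK2 to keep erythroid progenitors alive, and as erythroblasts mature they build a membrane in which band 3 (SLC4A1) is tied to the spectrin skeleton through ankyrin (ANK1) and protein 4.2 (EPB42).

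The promoters that could be searched, those of 6 of the 8 genes, carry the elements that these factors recognise to an unequal extent. RefSeq promoter sequences of the assembly GRCr8 were held for 6 of the 8 genes (all but Slc4a1 and Ank1), and the 250 bases before each start site were searched on both strands for a GATA hexamer, the letters GATA with A or T before them and A or G after them. A hexamer was found in 4 of the 6 windows, against 27% of 33469 windows of the same length. The 4 windows are shown because they hold the element read by GATA1, itself a member of the group. The hexamer is in capitals, and in Klf1, Epor and Rhag it is read on the opposite strand. The windows lie at chr19:40158652-40158901 for Klf1, chr8:28770323-28770572 for Epor, chr3:128451684-128451933 for Epb42 and chr9:27594391-27594640 for Rhag, and each is given 5′ to 3′ on the minus strand, from which all 4 genes are read.
Klf1: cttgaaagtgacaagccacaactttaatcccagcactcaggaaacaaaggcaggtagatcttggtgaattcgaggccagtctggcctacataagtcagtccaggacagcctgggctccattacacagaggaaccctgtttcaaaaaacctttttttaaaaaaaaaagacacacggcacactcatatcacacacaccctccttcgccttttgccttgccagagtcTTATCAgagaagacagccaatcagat
Epor: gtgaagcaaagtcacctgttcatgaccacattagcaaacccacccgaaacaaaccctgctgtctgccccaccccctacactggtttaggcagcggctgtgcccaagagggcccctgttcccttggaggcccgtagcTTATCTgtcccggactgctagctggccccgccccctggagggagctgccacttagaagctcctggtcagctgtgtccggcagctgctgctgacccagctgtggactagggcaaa
Epb42: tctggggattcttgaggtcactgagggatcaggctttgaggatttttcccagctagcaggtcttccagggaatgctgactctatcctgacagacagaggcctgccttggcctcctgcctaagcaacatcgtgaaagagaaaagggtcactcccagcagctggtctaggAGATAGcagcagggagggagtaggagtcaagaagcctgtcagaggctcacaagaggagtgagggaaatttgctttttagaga
Rhag: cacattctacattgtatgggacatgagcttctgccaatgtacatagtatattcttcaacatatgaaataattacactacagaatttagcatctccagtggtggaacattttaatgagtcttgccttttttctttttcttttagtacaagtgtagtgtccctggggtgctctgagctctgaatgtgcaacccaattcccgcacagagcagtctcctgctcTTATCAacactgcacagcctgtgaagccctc
The hexamer began 26 bases before the start site in Klf1, 31 in Rhag, 82 in Epb42 and 114 in Epor. The windows of Gata1 and Tal1 held none. The letters CACCC, on either strand, occurred in the windows of Gata1, Klf1, Epor and Rhag and in 49.2% of all windows. The E-box CAGCTG occurred in Epor (3 times) and Epb42 and in 12% of all windows, and CAGATG in Tal1 alone of the 6 and in 14% of all windows. These matches describe the sequence only.

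The 9 libraries held between 34874880 and 37298250 counts (median 36340063), and the 8 genes had counts from 2410 for Epb42 in Sham replicate 1 to 87642 for Slc4a1 in Sham replicate 3. Markers of the labelled tissue were present: all 12 osteoblast and osteocyte genes of a marker list were measured, and globin and heme genes of the erythroid lineage were abundant, the globins taking between 4.40% and 7.32% of all counts. Sham replicate 1 stood below the other Sham libraries for all 8 genes, with a mean log2 CPM of 7.555 over the 8 against 8.244 and 8.366, close to OVX replicate 2 at 7.574. It was the lowest of the 9 libraries for 4 of them (Klf1, Slc4a1, Epb42 and Rhag), as it was for 20% of all genes tested. It also had the highest share of counts in a list of skeletal muscle genes, 1.083% of counts against 0.642% and 0.189% in the other Sham libraries, 0.190% to 0.385% in OVX and 0.0649% to 0.508% in OVX-AS-IV-High. The part of muscle tissue in the values of the 8 genes was not tested. Results of the 8 genes against Sham are therefore given with and without this library. Those of the gene lists and of the genes most like the 8 are given with all 9 libraries only.

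Levels of the 8 genes relative to one another were read from FPKM (fragments scaled to gene length and library size), averaged over the 9 libraries. Slc4a1, the chloride and bicarbonate exchanger of the red cell, stood far above the rest at 406 FPKM (range 314 to 545), rank 173 of the 16874 genes. Klf1 followed at 127 FPKM (range 90.3 to 188, rank 519) and Rhag at 87.5 FPKM (range 52.7 to 128, rank 774). Slc4a1 was above Klf1, and Klf1 above Rhag, in 9 of 9 libraries, and Rhag was above the next gene in 8 of 9. The other 5 genes lay close together: Tal1 at 58.9 FPKM, Gata1 at 56.0, Epor at 55.1, Epb42 at 47.8 and Ank1 at 40.8, with ranks between 1207 and 1799. Tal1 was above Gata1 in 5 of 9 libraries, Gata1 above Epor in 5, Epor above Epb42 in 6 and Epb42 above Ank1 in 7, so these neighbours in the order were not separated beyond the spread between libraries.

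Ovariectomy raises the question of whether the red cell programme of the marrow differs after loss of the ovaries. In OVX vs. Sham, 7 of the 8 genes had a fitted log2 fold change (log2FC) below 0, against 50.8% of all genes. The median was -0.349 over the 8 genes and -0.0062 over all genes tested. The 8 genes moved together over the libraries, so their directions are not separate observations. None of the 8 differed at an adjusted p under 0.05 by edgeR's quasi-likelihood test, and neither did any other gene (0% of 16874 called, smallest adjusted p = 0.118). At an unadjusted p under 0.05 there were 3 of the 8, Tal1, Epor and Ank1, all lower in OVX, against 16.4% of all genes in either direction and 8.28% lower. DESeq2 called Tal1 alone of the 8 (adjusted p = 0.0106), among 834 genes. These were 5.25% of the genes with an adjusted p-value, and 2.45% were called lower. In bulk bone, fewer cells of a type and less RNA per cell cannot be told apart.

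Tal1, which encodes the basic helix-loop-helix factor of the GATA1 complex and is also used in blood stem cells and megakaryocytes, showed the widest difference. Its level in CPM (counts scaled to library size after TMM normalization) was 381, 536 and 537 in the Sham libraries, 373, 251 and 296 in those of OVX and 371, 365 and 372 in the OVX-AS-IV-High libraries. The OVX libraries all lay below the Sham libraries, although the highest OVX library and the lowest Sham library were only 1.021-fold apart. The mean was 485 ± 90.0 CPM (SD, n = 3) in Sham and 306 ± 61.7 in OVX, 36.8% lower in the fit, with a log2FC of -0.66 ± 0.171 (SE; 95% interval -1.05 to -0.28; unadjusted p = 0.00354, adjusted p = 0.153, edgeR). Gata1, the master zinc finger factor of the lineage and also needed by megakaryocytes, mast cells and eosinophils, stood at 94.4, 129 and 131 CPM in the Sham libraries, 107, 78.7 and 92.9 in those of OVX and 97.1, 93.6 and 115 in the OVX-AS-IV-High libraries. Sham and OVX overlapped through Sham replicate 1 and OVX replicate 1, and the log2FC was -0.34 ± 0.159 (adjusted p = 0.318, edgeR). Klf1, the activator of adult globin and many red cell membrane genes, stood at 136, 235 and 290 CPM in the Sham libraries, 191, 152 and 175 in those of OVX and 163, 192 and 218 in the OVX-AS-IV-High libraries. The Sham libraries spanned 2.13-fold and enclosed all 6 others, and the log2FC was -0.35 ± 0.241 (adjusted p = 0.464, edgeR).

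Epor, the receptor that ties progenitor survival to erythropoietin, stood at 90.1, 144 and 121 CPM in the Sham libraries, 89.4, 82.0 and 80.3 in those of OVX and 104, 76.1 and 92.4 in the OVX-AS-IV-High libraries. The OVX libraries agreed closely (SD 4.84 CPM, 5.77% of the mean) and all lay below Sham, by 1.008-fold at the nearest. The log2FC in OVX vs. Sham was -0.50 ± 0.172 (95% interval -0.88 to -0.11; unadjusted p = 0.0173, adjusted p = 0.216, edgeR), or 29.1% lower. Tal1 and Epor were the 2 of the 8 genes with every OVX library below every Sham library, a pattern met by 10.6% of all genes. By the thresholds of an unadjusted p under 0.05 with an absolute log2FC over 1, 0 of the 8 passed (3.11% of all genes), and with 0.58 in place of 1 only Tal1 did (6.96%).

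**Figure D1:**
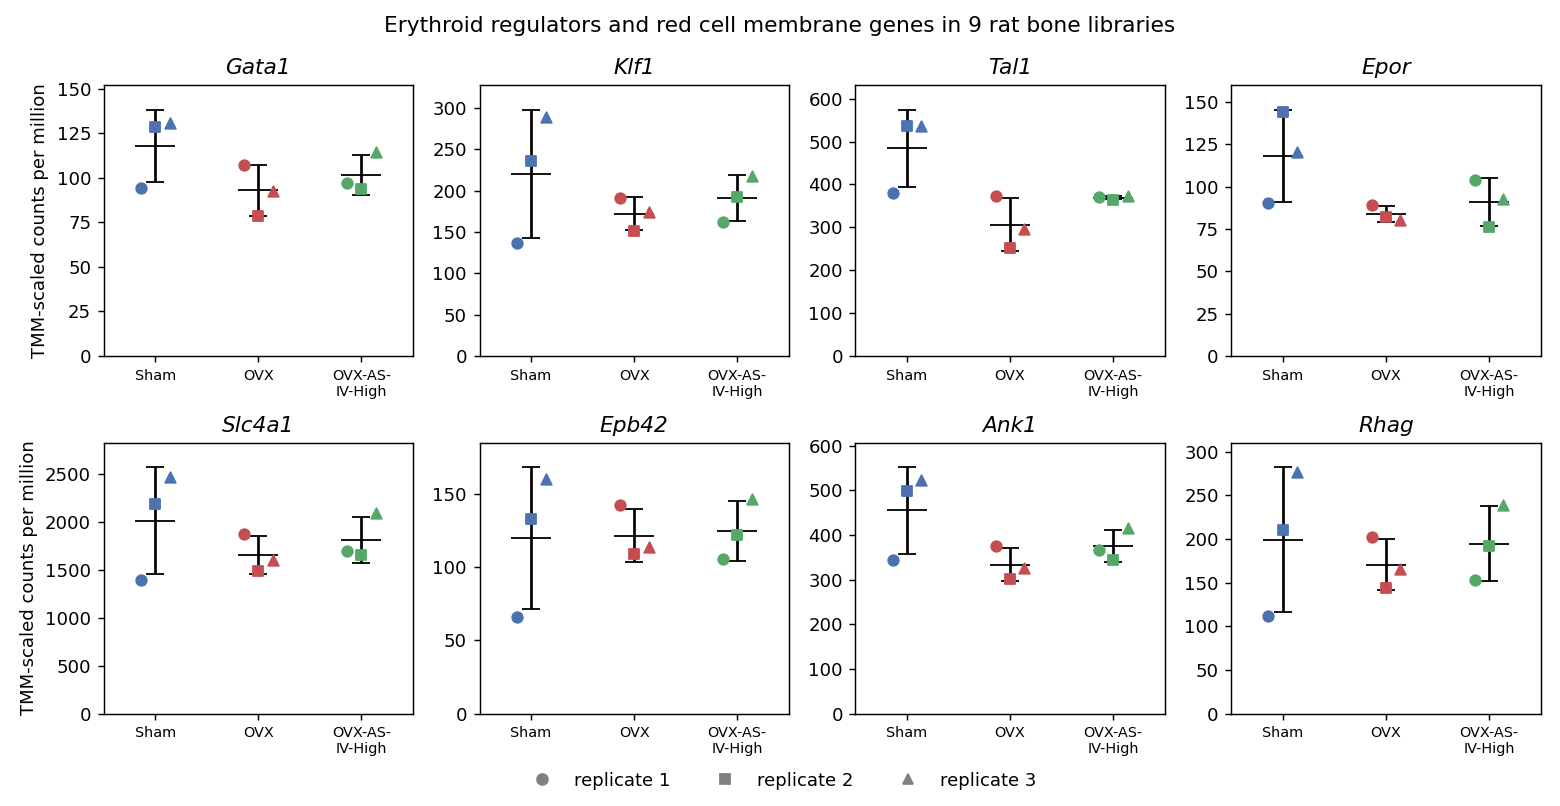
Levels of the 8 genes in each library, in CPM on linear axes from 0. Points are libraries, with the marker shape giving the replicate, and horizontal bars with whiskers are the group mean and SD (n = 3). Sham replicates 2 and 3 lie above all other libraries for Gata1, Klf1, Tal1, Epor, Slc4a1 and Ank1, while Sham replicate 1 lies at the bottom for Klf1, Slc4a1, Epb42 and Rhag.

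Among the membrane genes, Ank1, whose product anchors band 3 to β-spectrin, stood at 344, 499 and 522 CPM in the Sham libraries, 375, 301 and 326 in those of OVX and 367, 344 and 416 in the OVX-AS-IV-High libraries. Sham replicate 1 lay within the OVX range, and the log2FC in OVX vs. Sham was -0.45 ± 0.166 (95% interval -0.82 to -0.07; unadjusted p = 0.0237, adjusted p = 0.238, edgeR), or 26.6% lower. Slc4a1 stood at 1392, 2186 and 2469 CPM in the Sham libraries, 1881, 1492 and 1601 in those of OVX and 1694, 1658 and 2093 in the OVX-AS-IV-High libraries. Its Sham libraries again enclosed all the others, and the log2FC was -0.28 ± 0.206 (adjusted p = 0.494, edgeR). Rhag, the Rh-associated glycoprotein that the Rh complex needs to reach the membrane, stood at 111, 210 and 276 CPM in the Sham libraries, 202, 144 and 165 in those of OVX and 153, 192 and 239 in the OVX-AS-IV-High libraries. This was the widest spread within a group for any of the 8 genes, 2.48-fold among Sham libraries, and the log2FC was -0.22 ± 0.298 (adjusted p = 0.713, edgeR).

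Epb42, which encodes protein 4.2, the partner of band 3 and ankyrin, was the exception to the lower levels in OVX. It stood at 66.2, 133 and 160 CPM in the Sham libraries, 142, 109 and 113 in those of OVX and 106, 122 and 146 in the OVX-AS-IV-High libraries. The group means were 120, 122 and 125 CPM, and the log2FC in OVX vs. Sham was 0.02 ± 0.279 (adjusted p = 0.977, edgeR). The 95% interval of -0.61 to 0.65 covers a difference as large as that of Epor and one as large in the other direction.

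The comparison with Sham turned on single Sham libraries. Sham replicates 2 and 3 were the 2 highest of the 9 libraries for 6 of the 8 genes (Gata1, Klf1, Tal1, Epor, Slc4a1 and Ank1), against 4.57% of all genes. This pattern was taken from the values of the 8 genes themselves. The 8 genes also moved together over the libraries, so the 6 are not separate observations. Without Sham replicate 1, 7 of the 8 genes were lower in OVX at an unadjusted p under 0.05 (12.2% of all genes in either direction), Epb42 being the one left out, and the median log2FC was -0.566. In that fit the log2FC was -0.82 for Tal1, -0.67 for Epor, -0.62 for Ank1, -0.61 for Klf1, -0.52 for Rhag, -0.50 for Slc4a1, -0.49 for Gata1 and -0.28 for Epb42, and 0 of the 8 had an adjusted p under 0.05 (edgeR; 0 of all genes). Without Sham replicate 3 the median was -0.184, Rhag was at 0.09 and Epb42 at 0.29, and 2 of the 8 (Tal1 and Epor) had an unadjusted p under 0.05, against 25.2% of all genes. Tal1 alone did without Sham replicate 2 (10.3% of all genes) and without OVX replicate 3 (10.5%). Tal1 kept an unadjusted p under 0.05 in OVX vs. Sham with each of the 9 libraries left out in turn, with a log2FC between -0.83 and -0.53.

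**Figure D2:**
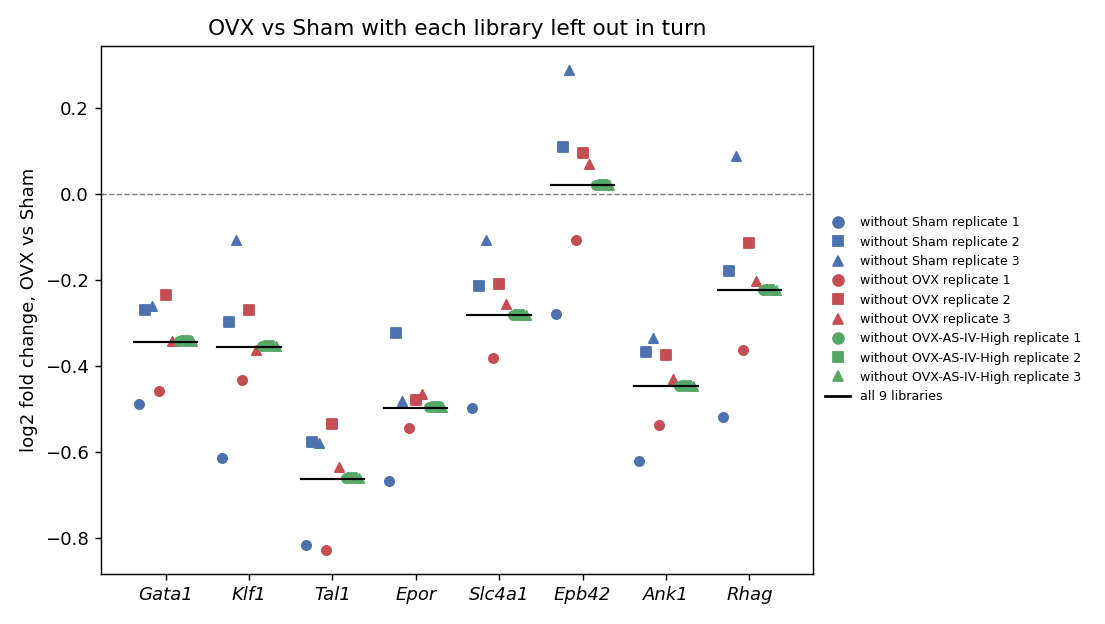
Fitted log2FC of the 8 genes in OVX vs. Sham with each of the 9 libraries left out in turn. Colour gives the group and shape the replicate of the library left out, and the black line is the fit of all 9 libraries. Leaving out Sham replicate 1 moved all 8 genes down, to between -0.82 and -0.28, and leaving out Sham replicate 3 put Rhag and Epb42 above 0.

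By the labels, only Sham replicate 1 had the same vehicle, 1% CMC-Na, as the OVX libraries, and 1 library allows no test. The authors' methods give 1% for all Sham and OVX rats, by which every Sham library would be matched. The level of Sham replicate 1 was above the OVX range for Tal1 (381 against 251 to 373 CPM) and Epor (90.1 against 80.3 to 89.4 CPM). It was within the OVX range for Gata1 and Ank1 and below it for Klf1, Slc4a1, Epb42 and Rhag.

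The next comparison asks whether the 8 genes differed in ovariectomized rats given AS-IV. In OVX-AS-IV-High vs. OVX all 8 genes had a log2FC above 0, against 46.7% of all genes. As the 8 moved together over the libraries, these are not 8 separate observations. The difference exceeded its standard error only for Tal1 and Ank1, and every 95% interval included 0. The fitted values were 0.27 ± 0.170 for Tal1, 0.19 ± 0.298 for Rhag, 0.17 ± 0.165 for Ank1, 0.15 ± 0.241 for Klf1, 0.13 ± 0.206 for Slc4a1, 0.13 ± 0.159 for Gata1, 0.11 ± 0.172 for Epor and 0.04 ± 0.279 for Epb42 (log2FC ± SE). The median was 0.140 over the 8 genes and -0.0163 over all genes. The libraries of both groups overlapped for every one of the 8, whereas all OVX-AS-IV-High libraries lay above all OVX libraries for 6.38% of genes and below them for 6.36%. Of the 8, 0 had an adjusted p under 0.05 (edgeR, 0% of all genes; DESeq2, 0 of the 8 and 37 genes in all) or an unadjusted p under 0.05 (6.45% of all genes). The smallest p was that of Tal1 (unadjusted p = 0.147, adjusted p = 0.894, edgeR), whose 95% interval ran from -0.11 to 0.65. The 3 OVX-AS-IV-High libraries agreed on Tal1 within 1.02-fold. Without OVX replicate 1, the highest OVX library for all 8 genes, the median was 0.238 and Tal1 had a log2FC of 0.43 with an unadjusted p under 0.05, the 1 gene of the 8 to do so (5.56% of all genes). The median was 0.0386 when OVX-AS-IV-High replicate 3 was left out and 0.0726 when OVX replicate 2 was.

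**Figure D3:**
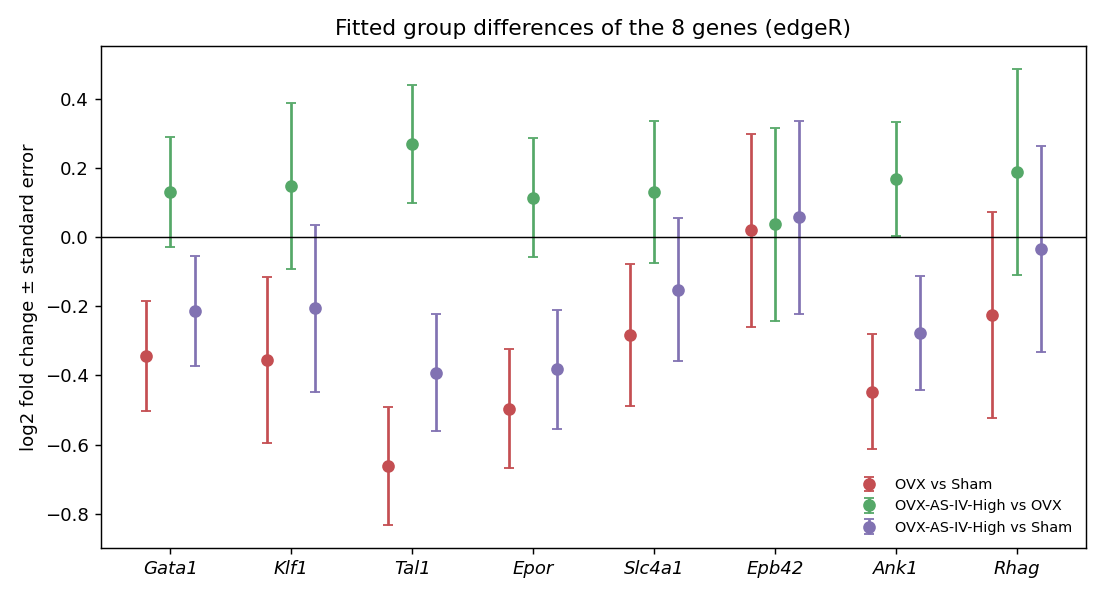
Fitted log2FC (points) with standard errors (bars) of the 8 genes in the 3 comparisons, from a single edgeR fit of 9 libraries. OVX vs. Sham lies below 0 for all but Epb42, OVX-AS-IV-High vs. OVX lies above 0 for all 8, where the bars cross 0 for all but Tal1 and Ank1.

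OVX-AS-IV-High was also set against Sham. This comparison shares its libraries with the first and the second, so that the 3 are not independent. The log2FC was -0.39 ± 0.170 for Tal1 (95% interval -0.78 to -0.01; unadjusted p = 0.046, adjusted p = 0.276, edgeR), with every OVX-AS-IV-High library below every Sham library by at least 1.023-fold, a pattern met by 10.3% of all genes. It was the 1 gene of the 8 with an unadjusted p under 0.05 (17.6% of all genes; 8.48% lower). Epor stood at -0.38 ± 0.172 (unadjusted p = 0.0524, adjusted p = 0.288, edgeR). The others ranged from -0.28 for Ank1 to 0.06 for Epb42, with Rhag at -0.03, and 0 of the 8 had an adjusted p under 0.05 by edgeR (0% of all genes) or DESeq2, although DESeq2 called 1009 genes and gave 2 of the 8 an unadjusted p under 0.05 (19.5% of all genes). Without Sham replicate 1, 6 of the 8 had an unadjusted p under 0.05, all but Epb42 and Rhag, against 14.1% of all genes. Without Sham replicate 2, Sham replicate 3, OVX replicate 3, or OVX-AS-IV-High replicate 2 or 3, 0 did, against 11.2% to 23.3% of all genes. The median log2FC was -0.210 with all libraries, -0.396 without Sham replicate 1 and -0.0545 without Sham replicate 3.

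A single test of any difference among the 3 groups gave Tal1 an unadjusted p of 0.0106 (adjusted p = 0.191, edgeR) and Epor one of 0.0387 (adjusted p = 0.273), while the other 6 lay between 0.0633 for Ank1 and 0.978 for Epb42. These were 2 of the 8 genes at an unadjusted p under 0.05, against 16.5% of all genes. None had an adjusted p under 0.05 (0% of all genes), although the likelihood ratio test of DESeq2 called Tal1 among 1269 genes. Without Sham replicate 1 the count at an unadjusted p under 0.05 was 6 (13% of all genes), and it was 1, Tal1, without Sham replicate 2 or 3, any of the 3 OVX libraries or OVX-AS-IV-High replicate 3 (9.75% to 22.5% of all genes).

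The 8 genes moved together over the libraries, but not as one block. Over the 28 pairs, Pearson's r of log2 CPM over the 9 libraries lay between 0.316 (Epor and Epb42) and 0.975 (Gata1 and Ank1), with a median of 0.838. It exceeded 0.9 in 9 pairs and was under 0.5 in 3. Klf1, Slc4a1, Rhag and Epb42 were close to one another (r = 0.966 for Klf1 and Slc4a1, 0.957 for Klf1 and Rhag, 0.949 for Epb42 and Rhag). Epb42 was less close to Klf1 (0.855) and Slc4a1 (0.841). Gata1, Tal1 and Ank1 were also close (r = 0.917 for Gata1 and Tal1, 0.935 for Tal1 and Ank1). Some pairs across these sets were far lower, such as Tal1 and Epb42 at 0.358. Others, such as Slc4a1 with Ank1 at 0.926 and with Gata1 at 0.921, were higher than some pairs within a set. With the group means removed, Tal1 and Epb42 had an r of 0.817, Klf1 and Rhag 0.993, and the lowest pair was Epor and Rhag at 0.508. The sets were then less distinct, with Slc4a1 and Ank1 at 0.988 and Gata1 and Tal1 at 0.915. Without Sham replicate 1, Tal1 and Epb42 had an r of 0.686. These correlations share libraries, depth and group structure and are given as a description.

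**Figure D4:**
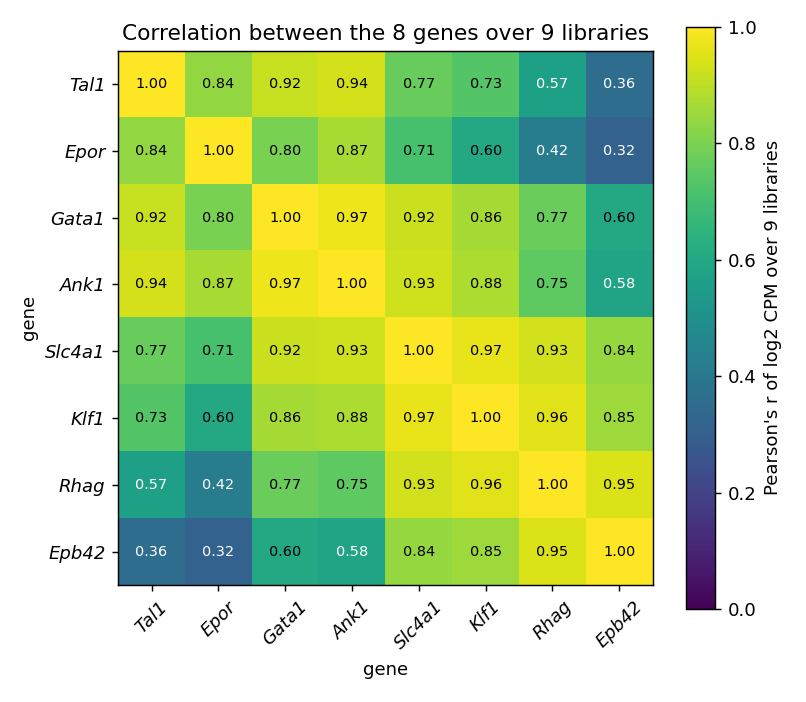
Pearson's r between the log2 CPM of each pair of the 8 genes over the 9 libraries, with the genes ordered by eye so that alike genes are adjacent. Colour runs from 0 to 1. The low corner joins Tal1 and Epor to Rhag and Epb42 (0.316 to 0.567), while Gata1 with Ank1 and Klf1 with Slc4a1, Rhag and Epb42 form the bright blocks. Some pairs across these blocks are as bright, such as Slc4a1 and Ank1 (0.926).

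The same contrast can be read within a library, where depth cancels. The ratio of Tal1 to Rhag CPM was 3.42, 2.55 and 1.94 in the Sham libraries, 1.84, 1.74 and 1.79 in those of OVX and 2.43, 1.90 and 1.56 in the OVX-AS-IV-High libraries. The ratio was thus higher in each Sham library than in each OVX library, while the OVX-AS-IV-High libraries were spread, with 1 in the Sham range, 1 between the groups and 1 below OVX. Tal1 to Slc4a1 was 0.273, 0.245 and 0.218 in the Sham libraries, 0.198, 0.168 and 0.185 in those of OVX and 0.219, 0.220 and 0.178 in the OVX-AS-IV-High libraries. Gata1 to Klf1 was 0.693, 0.546 and 0.452 in Sham and 0.563, 0.518 and 0.532 in OVX, with the OVX values inside the Sham range. Sham replicate 1 had the highest value of the 3 ratios. The pairs of genes were picked after their values were seen, so no test is given.

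The neighbouring genes of the pathway were described by lists without the 8 genes. In OVX vs. Sham, 16.4% of all genes had an unadjusted p under 0.05 in either direction, and 8.28% were lower. Among 15 erythroid transcription factors and cofactors, 3 were lower and 2 higher in OVX vs. Sham at an unadjusted p under 0.05, with a median log2FC of -0.153. The widest differences were those of Gata2 (-0.61 ± 0.266), the factor of early progenitors that GATA1 displaces, Gfi1b (-0.59 ± 0.188), a repressor needed in erythroid cells and megakaryocytes, and Tcf3 (0.40 ± 0.154), an E protein that pairs with TAL1 and also drives the B lineage. Of 15 genes of erythropoietin receptor signalling tested, 3 were lower and 2 higher, with a median of -0.0686. Epo itself was not among the genes tested. Erfe, the erythroblast hormone erythroferrone, which is induced by erythropoietin and lowers hepcidin, had a log2FC of -1.23 ± 0.160 (unadjusted p = 2.37e-05, adjusted p = 0.118, edgeR), beside Cish at -0.71 ± 0.334, a feedback inhibitor induced through STAT5, and the kinase Lyn at 0.37 ± 0.128.

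Of 18 further genes of the red cell membrane and skeleton, 3 were lower and 1 higher in OVX vs. Sham at an unadjusted p under 0.05, with a median of -0.202. Tmod1, which caps skeletal actin filaments, stood at -0.58 ± 0.207, the glycophorin Gypc at -0.56 ± 0.123 and the actin bundler Dmtn at -0.54 ± 0.210. Among 19 globin and heme synthesis genes 8 were lower and 0 higher, with a median of -0.255, led by Hba-a3 (-0.72 ± 0.282), the heme enzyme Ppox (-0.54 ± 0.136) and the mitochondrial iron importer Slc25a37 (-0.54 ± 0.168). Counts of the near-identical globin copies may have been divided between them. Among 17 late erythroblast and reticulocyte genes 6 were lower and 0 higher, with a median of -0.261 and all 17 below 0, led by the lipoxygenase Alox15 (-0.74 ± 0.253), the potassium channel Kcnn4 (-0.68 ± 0.130) and Tspo2 (-0.59 ± 0.155). Over all genes, 16.4% had an unadjusted p under 0.05 in either direction, 8.28% were lower at that threshold and 50.8% lay below 0. None of the genes in these 5 lists had an adjusted p under 0.05 by edgeR. The lists were chosen with earlier results of these data known. Genes of a list share the same libraries and are not separate observations.

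The same 5 lists had medians, for OVX-AS-IV-High against OVX, of 0.0211, -0.0742, 0.080, 0.109 and 0.147, in the order above. At an unadjusted p under 0.05 there were 3 genes among the 15, 15, 18, 19 and 17 tested, against 6.45% of all genes. Each was higher: Kitlg (0.50 ± 0.138), the stem cell factor gene, Xk (0.52 ± 0.172), a membrane protein of the Kell complex, and Cpox (0.65 ± 0.230), an enzyme of heme synthesis. Their adjusted p-values were 0.652, 0.652 and 0.678 (edgeR). All 19 globin and heme genes and 16 of the 17 late erythroblast genes had a log2FC above 0, against 46.7% of all genes. These counts too are not of separate observations. Among the transcription factors the widest values were those of Bcl11a (-0.22 ± 0.176), Tcf3 (-0.20 ± 0.154) and Foxo3 (0.19 ± 0.213).

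**Figure D5:**
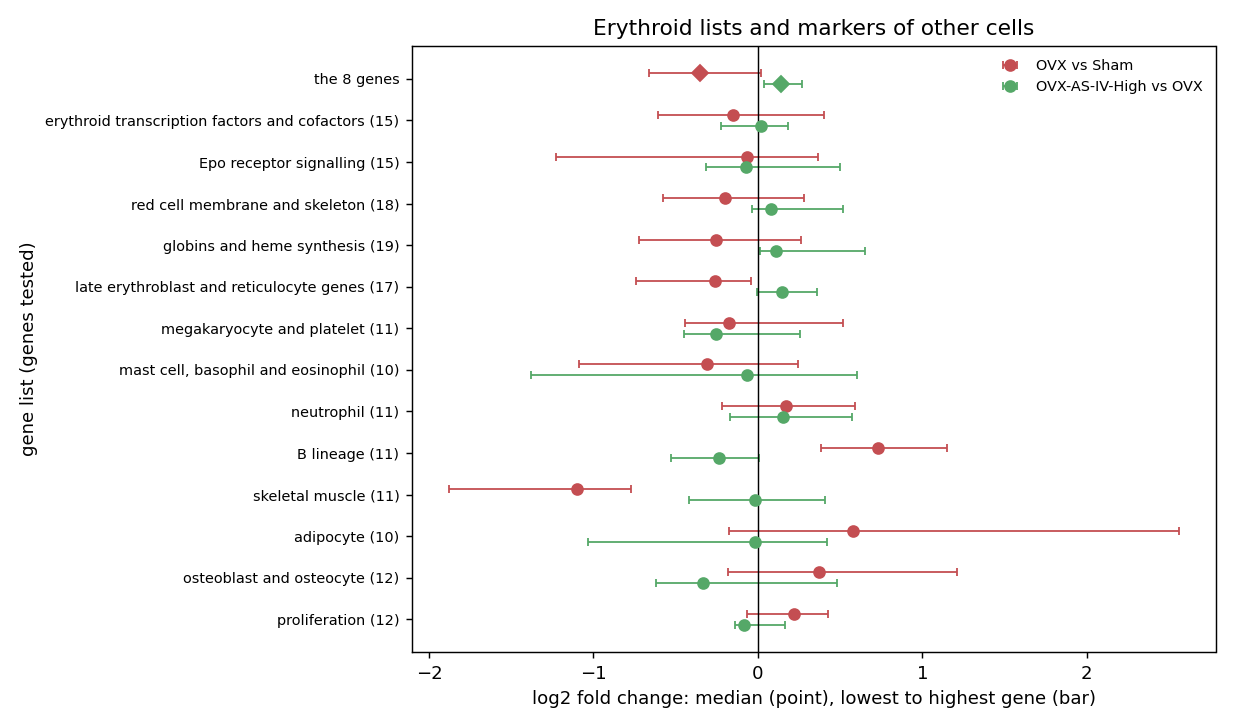
Median log2FC (points) and the range from the lowest to the highest gene (bars) of the 8 genes and of lists of other genes. Red is OVX vs. Sham, green is OVX-AS-IV-High vs. OVX. The number of genes tested is in brackets. The medians of the 5 erythroid lists lie between -0.261 and -0.0686 in OVX vs. Sham, the B lineage list lies at 0.730 and skeletal muscle at -1.10.

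Markers of other cells differed beside the 8 genes in OVX vs. Sham, and their part in the results was not tested. The share of all genes at an unadjusted p under 0.05 was 16.4% in either direction and 8.28% lower. B lineage genes were higher in 10 of 11 at an unadjusted p under 0.05, with a summed level between 811 and 1107 CPM in Sham and between 1408 and 1508 in OVX. Skeletal muscle genes had a median of -1.10 with 0 of 11 at an unadjusted p under 0.05, and summed levels between 1898 and 10650 CPM in Sham and between 1898 and 3807 in OVX. Adipocyte genes were higher in 6 of 10 (median 0.58; 538 to 743 CPM in Sham, 779 to 1035 in OVX). Of the lineages that also use Gata1, megakaryocyte and platelet genes had a median of -0.173, with 0 of 11 at an unadjusted p under 0.05 and 1069 to 1919 CPM in Sham against 1107 to 1674 in OVX. Mast cell, basophil and eosinophil genes had a median of -0.310, with 2 of 10 lower (847 to 1491 CPM in Sham, 539 to 719 in OVX). The medians of the remaining lists were 0.173 for neutrophil genes (2 of 11 higher; 12950 to 17880 CPM in Sham, 15540 to 20500 in OVX), 0.373 for osteoblast and osteocyte genes (1 of 12 higher; 5866 to 15310 and 11750 to 19050 CPM) and 0.220 for proliferation genes (0 of 12; 1518 to 2684 and 2110 to 2533 CPM).

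For Gata1 and Ank1 the counts carry a further uncertainty. In the RefSeq annotation of GRCr8, Gata1 overlaps the long non-coding RNA LOC102554502, which had between 57 and 190 counts per library against 2984 to 4648 for Gata1. Ank1 overlaps LOC120097525 and LOC134482520, which had no row in the tables used here. The libraries were made by a strand-specific protocol, but the strand setting of the counting is not given in the sources used here.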

How the data were processed

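Bone mRNA libraries of 3 Sham, 3 OVX and 3 OVX-AS-IV-High rats were used. The authors trimmed reads with NGS QC Toolkit, used Tophat and Bowtie2 for alignment and eXpress for quantification, and the submitters' processing notes give the build mRatBN7.2. Raw counts and FPKM values of each gene, as deposited by the authors, were read. The deposited FPKM were the counts rescaled: of 11928 genes that had 100 counts or more everywhere, 11928 gave a gene length equal over libraries within 1%. The depth of 34874880 to 37298250 counts per library leaves little counting error for the 8 genes.

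The main test was edgeR's quasi-likelihood test (version 4.0.16, R 4.3.3, TMM, default filter with a minimum count of 10, 9 libraries in one fit, common biological coefficient of variation 0.256), with Benjamini-Hochberg adjustment over 16874 genes. The alternatives were DESeq2 1.42.0, RLE factors, total counts, no filter, limma 3.58.1 on log2(FPKM + 1) and log2(FPKM + 0.1), only the groups compared, a replicate block, and each library left out. Plots used matplotlib 3.10.9.

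The 8 genes and the gene lists were chosen with earlier results of these data known. All 8 genes are named, as are, from each of the 5 erythroid lists, the 3 genes with the largest absolute log2FC (mean of at least 1 CPM) in OVX vs. Sham, and those of OVX-AS-IV-High vs. OVX where the text gives them. Lists of other cells are given by count and median. Genes most like the 8 had the highest Pearson correlation with their mean z-score, among 10360 genes with a mean of at least 10 CPM.

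Libraries of OVX and OVX-AS-IV-High with the same replicate number had weakly correlated deviations from their group means (0.31, 0.158 and 0.13). With Sham the values differed in sign (0.2, -0.161 and 0.253 with OVX, and 0.314, -0.158 and 0.435 with OVX-AS-IV-High). Neither the labels nor the authors' methods pair the rats, which were divided into groups at random. The main test used no pairs, and the replicate block treats the numbers as pairs only as an alternative.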

Additional observations from a re-analysis of the deposited data

How the results depend on the processing

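With 3 rats per group and a single bone sample each, differences of the size seen here were near the spread between libraries, and the cause of the dependence on Sham replicate 1 was not tested. In OVX vs. Sham, DESeq2 called 1 of the 8 genes (Tal1), among 834 genes, where edgeR called 0 of all genes. DESeq2 also called 1 of the 8 in the test of any difference, among 1269 genes. With an absolute log2FC over 0.58 in place of 1, 1 of the 8 genes passed in OVX vs. Sham (6.96% of all genes). In OVX-AS-IV-High vs. Sham, the count at an unadjusted p under 0.05 was 1 in the main setting (17.6% of all genes) and 0 with the replicate block (22%). It was 2 with DESeq2 (19.5%), total counts (17.5%) and limma on log2(FPKM + 1) (17.5%) or log2(FPKM + 0.1) (17.3%). In the test of any difference that count went from 2 (16.5% of all genes) to 1 with the replicate block (21.8%). It was also 1 with limma on log2(FPKM + 1), with the filter (16.5%) or without it (13.5%). The replicate block changed no other call of the 8 genes. In OVX-AS-IV-High vs. OVX it gave 0 of the 8 genes at an adjusted or unadjusted p under 0.05 (0% and 7.76% of all genes). So did a fit of these 6 libraries alone with the block (0% and 7.81% of all genes), a fit chosen after seeing the data. Of the 10 genes most like the 8, 6 were shared with a choice by Spearman's rho and 9 with one by FPKM.

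Directions changed for 4 of the 8 genes, the other 4 keeping theirs under every alternative. Epb42 in OVX-AS-IV-High vs. OVX was at -0.00414 with the block, at -0.0014 with limma on log2(FPKM + 1), with or without the filter, and at -0.00153 on log2(FPKM + 0.1). Rhag in OVX-AS-IV-High vs. Sham was at 0.029 with limma on log2(FPKM + 1), with or without the filter, and at 0.0301 on log2(FPKM + 0.1). With each library left out, Epb42 lay between -0.278 and 0.288 in OVX vs. Sham, from -0.0945 to 0.164 for OVX-AS-IV-High vs. OVX, and from -0.228 to 0.324 for OVX-AS-IV-High vs. Sham. Rhag lay from -0.519 to 0.0879 in OVX vs. Sham and from -0.316 to 0.277 for OVX-AS-IV-High vs. Sham, where Klf1 lay between -0.452 and 0.0411 and Slc4a1 between -0.353 and 0.0218. The count of the 8 at an unadjusted p under 0.05 lay from 1 to 7 in OVX vs. Sham (10.3% to 25.2% of all genes). It lay from 0 to 1 for OVX-AS-IV-High vs. OVX (3.95% to 8.32%) and from 0 to 6 for OVX-AS-IV-High vs. Sham (11.2% to 23.3%). In the test of any difference it lay from 1 to 6 (9.75% to 22.5%).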

Other observations

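Among 10360 genes with a mean of at least 10 CPM, those whose log2 CPM followed the mean of the 8 genes most closely over the 9 libraries were Itsn1 (r = 0.987), Hagh (0.979), Mgst3 (0.978), Rab3il1 (0.977), Car2 (0.976), Prdx3 (0.975), Dmtn (0.975), Marchf8 (0.967), Abcb10 (0.966) and Vopp1 (0.965). Car2 encodes the red cell carbonic anhydrase, Dmtn a protein of the membrane skeleton and Abcb10 a transporter of the inner mitochondrial membrane of erythroid cells. Their log2FC in OVX vs. Sham lay between -0.54 for Dmtn and -0.21 for Marchf8, with adjusted p-values between 0.258 and 0.529 (edgeR).

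Taken one gene at a time, the closest partners differed. Ank1 was followed most closely by Itsn1 (r = 0.991), Fech (0.980), which inserts iron into heme, and Fancc (0.978). Klf1 was followed by Marchf8 (0.988), Eif2ak1 (0.981), the heme-regulated kinase of translation, and Sptb (0.976), the erythroid β-spectrin. Slc4a1 was followed by Mgst3 (0.988), Ermap (0.982) and Specc1 (0.982), Epb42 by Phlpp2 (0.992), Trak2 (0.989) and Blvrb (0.980), and Rhag by Brca1 (0.990), Herc1 (0.986) and Blvrb (0.985). Gata1 was followed by Mff (0.980), Hagh (0.977) and Myo5c (0.972), Tal1 by Tmie (0.982), Smox (0.965) and Mff (0.964), and Epor by Abcb9 (0.973), Rnf123 (0.970) and Usp7 (0.969). These correlations rest on 9 libraries that share depth and group structure and are given as a description.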
